A study of Homo sapiens with 16 samples.

Results

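The regions described here are HOXB13 binding sites called by ChIP-seq in LNCaP prostate cancer cells that re-expressed wild-type HOXB13, at places where neither cells re-expressing the G84E form nor control cells had a HOXB13 peak. They were chosen by 1 rule: a peak of the WT library that overlapped no peak of the G84E library and no peak of the pGIPZ control library by 1 bp or more. The rule kept 73744 of the 190879 WT peaks, which is 38.6% of that list, out of 816313 peaks in the 12 peak lists analysed. They are called WT-alone sites below. Of these sites, 73313 lay on chromosomes 1 to 22 and X, 304 on Y, 126 on unplaced or random sequences and 1 on the mitochondrial genome.

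HOXB13 is a homeodomain transcription factor of the prostate lineage that binds DNA together with the androgen receptor and its partner factors. The G84E form carries an inherited glycine-to-glutamate change that is associated with prostate cancer risk. HDAC3 and HDAC1 are histone deacetylases, enzymes that remove acetyl groups from histones within corepressor complexes. ATAC-seq marks open chromatin, and H3K27ac is an acetylated histone found at active promoters and enhancers.

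LNCaP, an androgen-sensitive prostate cancer line, was infected for 7 days. The WT cells received a HOXB13 shRNA with a lentivirus carrying HOXB13-WT, and the G84E cells received the same shRNA with a lentivirus carrying HOXB13-G84E. The knockdown cells received the HOXB13 shRNA alone, and the control cells received the pGIPZ control shRNA. The WT and G84E cells thus carried the shRNA that the control cells lacked, and their re-expressed HOXB13 came from a virus. HOXB13 was profiled in these 4 states, HDAC3 and ATAC-seq in knockdown and control cells, and HDAC1 in control cells. In PC-3, an androgen-independent prostate cancer line, H3K27ac was profiled in shHOXB13 and pGIPZ cells and HOXB13 in pGIPZ cells. The PC-3 HOXB13 antibody came from another supplier than the LNCaP one, and the 4 LNCaP H3K27ac samples were not analysed here.

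Each group held 1 library, so no replicate spread could be measured. All intervals are 95% intervals that cover counting error only, neighbouring sites of a library are not independent of each other, and no p-value is given. The values are normalized tag counts, meaning reads in a peak scaled to a library of 10000000 tags. The WT library held 40.3 M tags (M for mega), against 44.2 M in the G84E library and 34.4 M in the control library. The share of tags inside peaks was 17.1% in the WT library, 15.6% in the G84E library, 2.13% in the knockdown library and 9.17% in the control library. The knockdown list held 22864 peaks and the control list 91430.

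The tag counts of the WT-alone sites describe the selection and test nothing, because the rule rests on calls in the same libraries. Their median was 5.46 normalized tags, or 22 reads, and 5th to 95th percentiles ran from 4.22 to 9.19. The WT library's calling threshold was 18 reads, and 46478 WT-alone sites (63.0%) had a peak score within 5 of it. WT-alone sites were thus mostly weak peaks close to the calling limit. The additional sites found with G84E alone, which are the mirror set of 78492 G84E peaks, had a median of 5.21 and 60.4% of peaks within 5 of their threshold. Additional sites common to WT and G84E, the 55496 WT peaks that overlapped a G84E peak but no control peak, had a median of 6.70 and 32.9% within 5.

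**Figure D1:**
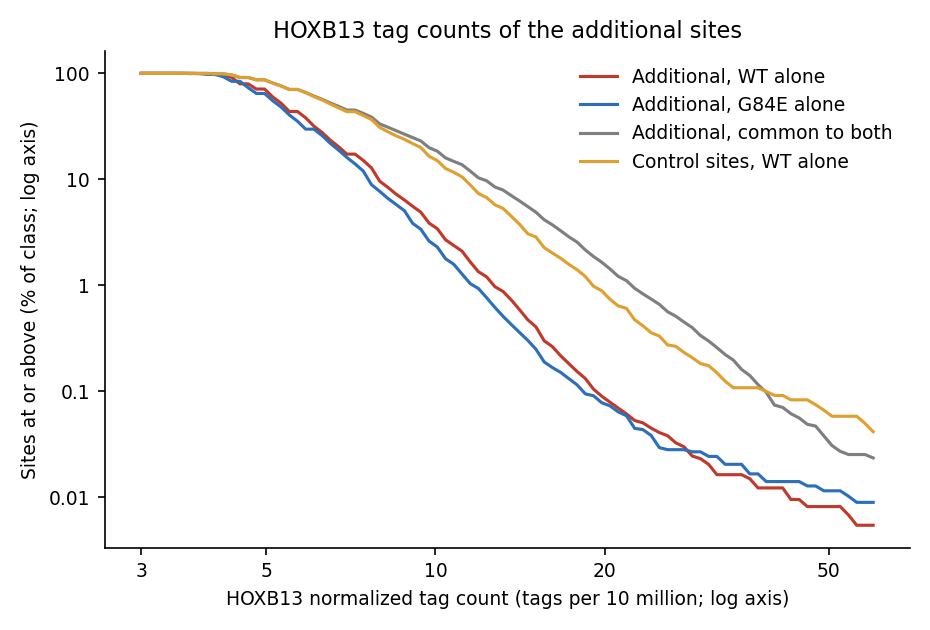
Share of each class of HOXB13 sites (percent, log axis) at or above a given normalized tag count (tags per library of 10000000, log axis), in the WT library, and in the G84E library for G84E-alone sites. The lines of the WT-alone and G84E-alone sites run close together and below those of the common additional sites and of the control sites regained with WT alone.

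Few WT-alone sites were strong. At 10 or more normalized tags there were 2521 (3.42% of WT-alone sites), which made up 5.88% of all WT peaks at that level. At 20 or more there were 64, which made up 0.634% of WT peaks at that level. Thresholds differed between the lists: 19 reads in the G84E library is 4.30 normalized tags, and 16 reads in the control library is 4.66. Scaled to the depth of those libraries, the tag counts of 6220 WT-alone sites (8.43%) would lie under the G84E threshold. Those of 15079 sites (20.4%), which include the 6220, would lie under the control threshold. The caller's threshold applied to the peak score, however, and not to the tag count. All 6220 sites also lay under the WT library's own threshold of 4.47 normalized tags, and were called there. These counts thus do not give the number of sites that a threshold kept out of either list. The median site would hold 24.1 reads in the G84E library and 18.8 in the control library. The lists give no read count at places without a peak, so a WT-alone site is a site with no call in the other lists, which need not be a site without HOXB13.

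The distance of WT-alone sites to the lists they were selected against is given as a description, with no distance that lists of this density would give by themselves. The median distance from the site's edge to the nearest peak was 4165.5 bp for the G84E list and 9954 bp for the control list. A peak of either list lay within 500 bp of 8835 sites (11.98%). At the boundary of the rule, 594 WT-alone sites had a G84E or control peak less than 25 bp away without overlapping it, with a median of 6.21 normalized tags. The 629 WT peaks just outside, which overlapped such a peak by at most 25 bp, had a median of 5.96. The site chr13:35401404-35401678 (hg19, as all coordinates here), with 18.1 tags, abutted a control peak at a gap of 0 bp and stayed inside, while chr17:70393926-70394200, with 14.7 tags, overlapped a G84E peak by 1 bp and fell outside.

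Most WT-alone sites carried no peak in any of the 9 other lists. This held for 62085 sites, 84.2% (83.9 to 84.5%), against 88.5% of G84E-alone sites, 80.2% of common additional sites and 73.3% of all WT peaks. The WT-alone share was 4.30 points lower than that of G84E-alone sites (difference -4.30, interval -4.64 to -3.95), and 3.95 points above that of common additional sites (3.53 to 4.37). At the other end, 11 WT-alone sites had a peak in all 9 lists.

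Open chromatin was measured in cells without the WT virus. A control ATAC-seq peak lay at 1529 WT-alone sites, 2.07% (1.97 to 2.18%), where the background over all WT peaks was 5.11%. G84E-alone sites had an ATAC-seq peak at 0.994%, where the background over all G84E peaks was 4.28%, so the WT-alone share was 2.09 times as high, a difference of 1.08 points (0.956 to 1.205). The difference was 1.05 points when the classes were standardised to the same tag counts. Common additional sites stood at 1.58%, 0.489 points below WT-alone sites (0.343 to 0.635). The ATAC-seq share over all peaks was itself 1.19 times as high in the WT list as in the G84E list. WT-alone sites were more often open than either other additional class, and less often open than WT peaks at large. Alternative settings moved the difference from common sites between 0.188 and 1.40 points and the difference from G84E-alone sites between 0.782 and 1.74, with the sign kept.

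The knockdown ATAC-seq list gave the same order. There, 1377 WT-alone sites (1.87%; background 4.32%) had a peak, against 0.898% of G84E-alone (background over all G84E peaks 3.56%) and 1.36% of common additional sites. The differences were 0.969 points (0.852 to 1.09) and 0.503 points (0.365 to 0.640). The 2 lists are not independent views, since 998 WT-alone sites had a peak in both.

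HDAC3 was likewise found at a small share of WT-alone sites. A control HDAC3 peak lay at 2057 of them, 2.79% (2.67 to 2.91%), where the background over all WT peaks was 6.99%. G84E-alone sites stood at 1.47% (background over all G84E peaks 6.04%), 1.32 points below (1.17 to 1.47), and the WT-alone share was 1.90 times as high. Over all peaks, the HDAC3 share of the WT list was 1.16 times that of the G84E list. The difference between the alone classes was 1.28 points after standardising for tag count and ranged from 0.654 to 2.24 under the alternatives. Against common additional sites, at 2.60%, the difference was 0.189 points (0.0104 to 0.366). It was 0.400 points with tag counts standardised, and its interval included 0 under 4 alternatives, the lowest value being 0.0407 when peaks were matched by their centres. It was 1.02 points (0.794 to 1.25) in the better-scoring 50% of every list and 1.36 points (1.02 to 1.69) with equal numbers of HOXB13 peaks, so its size depended on these settings. After knockdown, an HDAC3 peak lay at 1662 WT-alone sites (2.25%; background 4.86%), against 1.14% of G84E-alone sites (background over all G84E peaks 4.06%) and 1.84% of common additional sites.

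HDAC1, profiled in control cells alone, had a peak at 607 WT-alone sites, 0.823% (0.760 to 0.891%), where the background was 1.06%. The share was 0.469% in G84E-alone sites (background over all G84E peaks 0.875%) and 0.474% in common additional sites, 0.354 points (0.274 to 0.436) and 0.349 points (0.262 to 0.436) below that of WT-alone sites. Set against its background, the HDAC1 share of WT-alone sites was less reduced than the HDAC3 share.

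**Figure D2:**
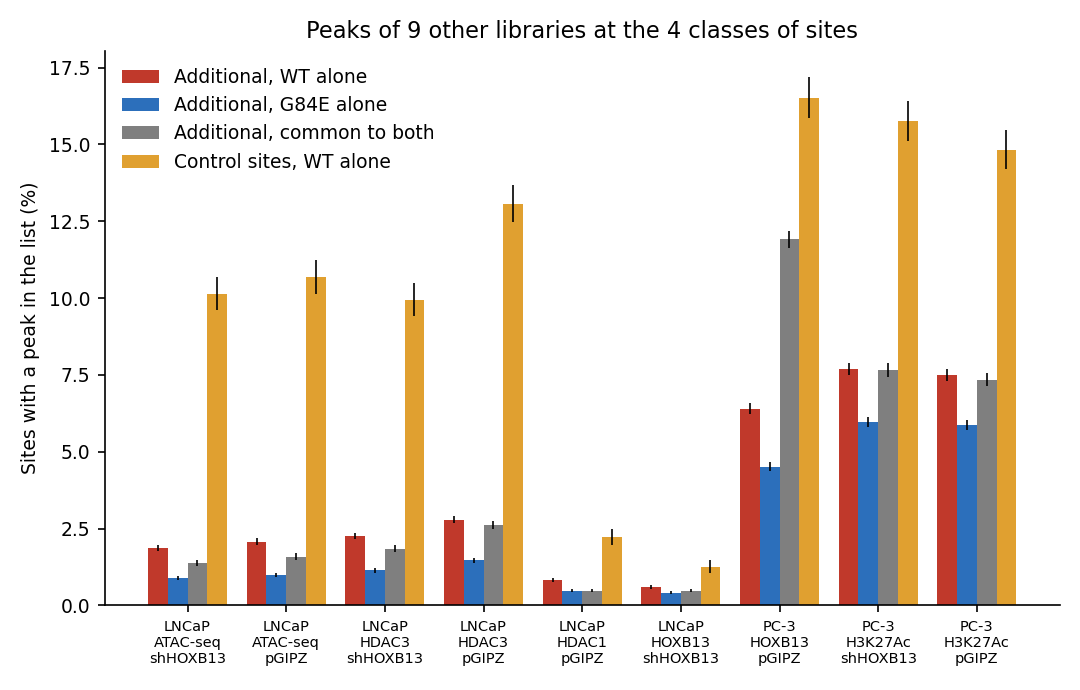
Percent of sites with a peak of each of 9 other libraries, for WT-alone sites, G84E-alone sites, common additional sites and control sites regained with WT alone; error bars are Wilson 95% intervals. WT-alone bars stand above G84E-alone bars in every list and far below the bars of regained control sites; for PC-3 HOXB13 they are also below common additional sites (6.40% against 11.9%).

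For ATAC-seq and HDAC3 the largest of the 3 differences was with control sites regained with WT alone, the 12075 WT peaks that overlapped a control peak and no G84E peak. These sites were also called with WT and not with G84E, and differ from WT-alone sites by a HOXB13 call in control cells. A control ATAC-seq peak lay at 2.07% of WT-alone sites and 10.7% of regained control sites, a difference of -8.60 points (-9.17 to -8.05). For HDAC3 the shares were 2.79% and 13.1%, a difference of -10.3 points (-10.9 to -9.67). Standardised for tag count, the differences were -6.94 and -9.04 points. Matching peaks by their centres brought the HDAC3 difference to -5.71 points.

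In PC-3 cells, HOXB13 occupied part of these places as well. A PC-3 HOXB13 peak lay at 4723 WT-alone sites, 6.40% (6.23 to 6.58%), where the background was 14.4%. WT-alone sites exceeded G84E-alone sites, at 4.51% (background over all G84E peaks 13.3%), by 1.89 points (1.66 to 2.12), which moved between 1.60 and 3.13 under the alternatives. They fell short of common additional sites, at 11.9%: the difference was -5.51 points (-5.83 to -5.18), and -2.99 points with tag counts standardised. PC-3 HOXB13 was therefore the list in which WT-alone sites stood between the other additional classes, whereas for LNCaP ATAC-seq and HDAC1, and for HDAC3 by a margin that varied with the settings, they stood above both.

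PC-3 H3K27ac regions covered 5527 WT-alone sites in pGIPZ cells (7.49%; background 9.78%) and 5679 in shHOXB13 cells (7.70%; background 10.3%). G84E-alone sites stood at 5.86% in pGIPZ cells (background over all G84E peaks 8.86%), 1.63 points lower (1.38 to 1.88). In shHOXB13 cells they stood at 5.96% (background 9.29%), 1.74 points lower (1.48 to 1.99). Common additional sites stood at 7.35%, and the interval of the difference, 0.148 points (-0.141 to 0.436), included 0. With tag counts standardised that difference was 1.00 points (0.699 to 1.31). Of the 5527 sites, 83.6% also lay in an H3K27ac region after knockdown, against 85.9% of all WT peaks with control H3K27ac.

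The LNCaP knockdown HOXB13 list met 443 WT-alone sites (0.601%, 0.547 to 0.659%; background 0.87%). G84E-alone sites stood at 0.418% (background over all G84E peaks 0.79%), a difference of 0.183 points (0.111 to 0.255). Peaks in 3 or more of the remaining 8 lists lay at 27.99% of these 443 sites, against 3.499% of the other WT-alone sites. The same contrast was found in G84E-alone sites (30.2% and 1.98%), common additional sites (23.5% and 3.69%) and all WT peaks (44.5% and 7.44%).

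The lists overlapped within the WT-alone sites, as they did within WT peaks in general. HDAC3 lay at 53.6% of the 1529 sites with control ATAC-seq and at 1.71% of those without, a difference of 51.9 points (49.4 to 54.4). Over all WT peaks the shares with and without ATAC-seq were 56.4% and 4.33%. The HDAC3 share of open sites was thus no higher in WT-alone sites than in the whole list. HDAC1 lay at 27.3% and 0.263% of WT-alone sites with and without ATAC-seq, against 13.4% and 0.393% of all WT peaks. PC-3 H3K27ac lay at 56.4% and 6.46% of them, against 40.6% and 8.12% of all WT peaks. PC-3 HOXB13 lay at 26.2% and 5.98%, against 38.1% and 13.1% of all WT peaks. The open sites, 2.07% of the class, thus held 820 of the 2057 sites with HDAC3 and 417 of the 607 with HDAC1. ATAC-seq, HDAC3 and HDAC1 were found together at 307 sites, 0.416% of WT-alone sites and 0.523% of all WT peaks. HDAC3 without ATAC-seq was found at 1237 sites (1.68%, against 4.11% of all WT peaks) and ATAC-seq without HDAC3 at 709 (0.961%, against 2.23%). PC-3 H3K27ac covered 30.3% of the sites with PC-3 HOXB13 and 5.94% of those without, a difference of 24.3 points (23.04 to 25.7). Over all WT peaks the shares were 30.4% and 6.31%, so this contrast was nearly the same in WT-alone sites and in the whole list.

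Among open sites, no HDAC3 difference between the classes had an interval that excluded 0, while HDAC1 was more frequent at open WT-alone sites than at open common or regained sites. HDAC3 at open WT-alone sites (53.6%) differed from that at open G84E-alone sites (56.4%) by -2.78 points (-7.04 to 1.52) and from that at open common additional sites (53.5%) by 0.160 points (-3.96 to 4.30). HDAC1 lay at 27.3% of open WT-alone sites, against 19.3% of open common additional sites, 15.2% of open regained control sites and 13.4% of all open WT peaks. The differences from the common and regained sites were 7.93 points (4.43 to 11.3) and 12.1 points (9.07 to 15.01). Open G84E-alone sites stood at 31.2%, and the difference of -3.88 points had an interval of -7.86 to 0.0125. Among sites with HDAC3, HDAC1 lay at 19.2% of WT-alone, 20.7% of G84E-alone and 12.3% of common additional sites. Regained control sites stood at 12.1%. Within open sites and within sites with HDAC3, the HDAC1 shares of the WT-alone and G84E-alone additional sites were thus above those of the common and regained sites. Over whole classes this order did not hold, since HDAC1 lay at 2.21% of all regained control sites and 0.823% of all WT-alone sites.

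**Figure D3:**
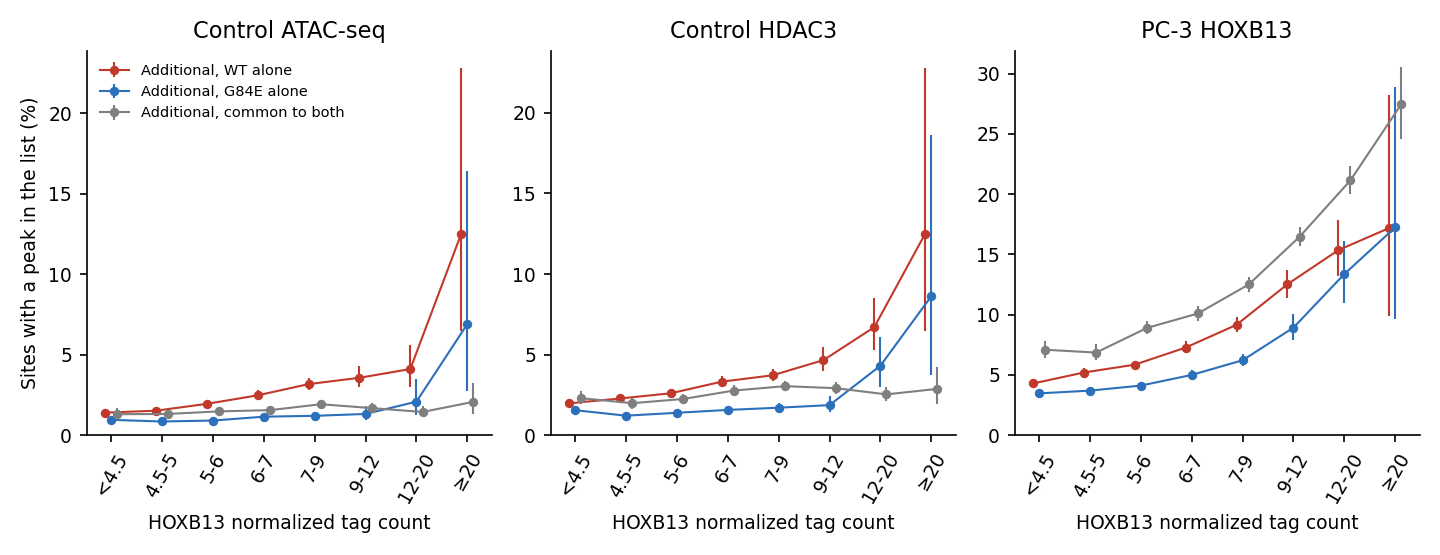
Percent of sites with a control ATAC-seq, control HDAC3 or PC-3 HOXB13 peak (3 panels) by HOXB13 normalized tag count, for WT-alone, G84E-alone and common additional sites; error bars are Wilson 95% intervals. Shares of WT-alone sites are higher at higher tag counts in all panels, whereas the ATAC-seq share of common additional sites lies between 1.30% and 2.07% throughout.

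The share of WT-alone sites in open chromatin was higher at higher HOXB13 tag counts. It was 1.40% (1.22 to 1.60%) of the 15079 sites below 4.5 tags and 4.11% (3.01 to 5.59%) of the 925 sites between 12 and 20 tags. It was 12.5% (8 of 64 sites, 6.47 to 22.8%) at 20 tags or more. The ATAC-seq share of common additional sites was 1.30%, 1.44% and 2.07% in the same groups, and that of G84E-alone sites 0.951%, 2.08% and 6.90%. The classes were closest among the weakest sites and farthest apart among the strong ones, although the strongest group holds few sites of the 1-form classes. Sites within 500 bp of a G84E or control peak were not set apart in these groups. Without them, 1.87% of the whole WT-alone class was open, against 2.07% with them.

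HDAC3 and PC-3 HOXB13 shares of WT-alone sites were also graded by tag count. HDAC3 lay at 1.98%, 6.70% and 12.5% of WT-alone sites below 4.5, between 12 and 20 and at 20 or more tags, against 2.29%, 2.53% and 2.87% of common additional sites. PC-3 HOXB13 lay at 4.29%, 15.4% and 17.2% of WT-alone sites and at 7.09%, 21.1% and 27.5% of common additional sites. For HDAC3 the order of these 2 classes was thus reversed between the weakest and the stronger sites, with intervals that overlapped below 4.5 tags (1.77 to 2.21% and 1.91 to 2.76%). For PC-3 HOXB13, WT-alone sites stayed below common additional sites in each group. Without sites within 500 bp of a G84E or control peak, the HDAC3 share of the whole WT-alone class was 2.49%, against 2.79% with them. The grading by tag count was not recomputed without those sites.

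Where a WT-alone site carried a peak of another library, that peak was of ordinary height. The median control HDAC3 tag count was 15.8 at WT-alone sites, against 15.3 over the whole HDAC3 list. For control ATAC-seq the medians were 5.53 and 5.26, for HDAC1 19.3 and 17.2, and for PC-3 HOXB13 12.3 and 12.7. Weak HOXB13 peaks of the WT-alone class thus coincided with HDAC3, HDAC1 and ATAC-seq peaks whose medians were not below those of their lists. PC-3 H3K27ac regions at WT-alone sites had a median of 64.8, against 30.7 over their list, but these regions vary in width and a larger region holds more tags and meets more sites.

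Part of the HDAC3 and ATAC-seq peaks at these sites was also called after HOXB13 knockdown. Of the 2057 WT-alone sites with a control HDAC3 peak, 951 (46.2%, 44.1 to 48.4%) also had one in knockdown cells, where 47.7% of all control HDAC3 peaks and 44.5% of WT peaks with HDAC3 did. The share exceeded that of common additional sites by 7.08 points (3.75 to 10.4). It differed from that of G84E-alone sites by 2.90 points (-0.684 to 6.47). For ATAC-seq, 998 of 1529 (65.3%, 62.8 to 67.6%) had a knockdown peak, where 50% of all control ATAC-seq peaks and 63.4% of open WT peaks did. HDAC3 and ATAC-seq peaks at WT-alone sites were thus kept at shares near those of all WT peaks.

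At the 951 sites with HDAC3 in both libraries, the median was 14.4 normalized tags in knockdown cells and 19.9 in control cells, and the median log2 ratio, knockdown over control, was -0.47 (-0.51 to -0.41). Peaks were narrower in the knockdown HDAC3 list, 365 bp against 471 bp in the control list, and on the scale of tags per bp the median log2 ratio was -0.10. Over all 16184 HDAC3 peaks called in both libraries the medians were -0.44 and -0.07 on the same 2 scales. A log2 ratio of -1 or below was found at 130 WT-alone sites (13.7%; background 15.2%) and of 1 or above at 3 (0.315%; background 0.414%). The HDAC3 shift at WT-alone sites was thus close to that of HDAC3 peaks at large.

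**Figure D4:**
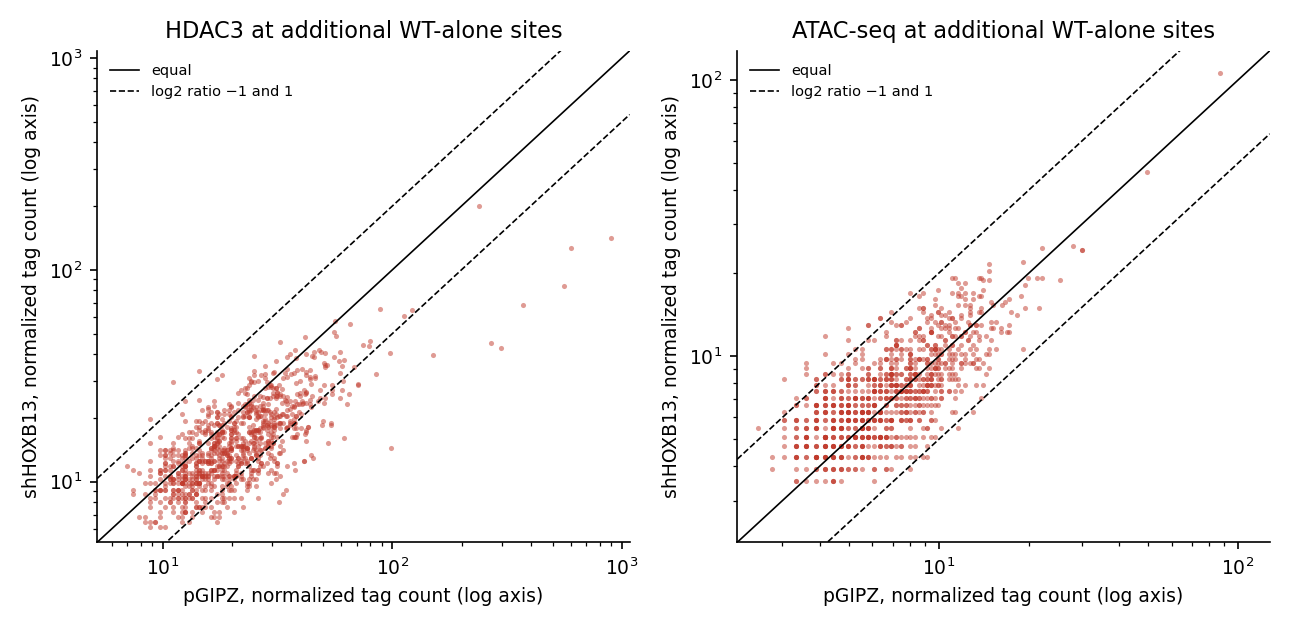
HDAC3 and ATAC-seq normalized tag counts in shHOXB13 (vertical, log axis) against pGIPZ LNCaP cells (horizontal, log axis) at WT-alone sites with a peak in both libraries (951 and 998 points). The solid line marks equal counts and dashed lines log2 ratios of -1 and 1; most HDAC3 points lie below the solid line, and ATAC-seq points lie on both sides of it.

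ATAC-seq at the 998 sites open in both libraries had a median of 7.46 tags in knockdown cells and 6.92 in control cells, with a median log2 ratio of 0.12 (0.09 to 0.16). On the tags-per-bp scale it was -0.09, since ATAC-seq peaks were 111 bp wide in the knockdown list and 96 bp in the control list. A log2 ratio of -1 or below was found at 5 sites (0.501%; background 0.469%) and of 1 or above at 29 (2.91%; background 2.65%). The direction of the median thus depended on the correction for peak width.

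Among WT-alone sites at or above the median HDAC3 level, the 3 largest HDAC3 falls stood at sites with 5.21 to 6.46 HOXB13 tags. The 3 largest rises stood at sites with 4.72 to 5.96. These tag counts were ordinary for WT-alone sites, whose median was 5.46. At chr3:112280764-112281038, with 6.46 HOXB13 tags in WT cells, HDAC3 had 42.6 tags in knockdown cells and 296.3 in control cells. The log2 ratio was -2.80 (-3.10 to -2.51), and -2.43 on the scale of tags per bp. A control HOXB13 peak lay 67 bp from this site and a G84E peak 230 bp from it. With a margin of 500 bp it would thus leave the class. At chr18:77866697-77866971, with 5.46 HOXB13 tags in WT cells, HDAC3 had 14.4 tags in knockdown cells and 98.3 in control cells. The log2 ratio there was -2.77 (-3.31 to -2.26), and -2.40 in tags per bp. Both sites had a control ATAC-seq peak, of 13.6 and 5.26 tags, and both lay in PC-3 H3K27ac regions. The highest log2 ratio was at chr9:38363081-38363355, with 29.6 HDAC3 tags in knockdown cells and 11.1 in control cells. It was 1.42 (0.74 to 2.14), and 1.78 in tags per bp. That site had no ATAC-seq, HDAC1 or PC-3 peak.

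The strongest WT-alone sites on chromosomes 1 to 22 and X held 30.8 to 453.4 normalized tags, and 8 of the strongest 10 had a peak in another list. The first was chr16:46391870-46392144 with 453.4 tags (432.9 to 474.7, exact Poisson interval). A G84E peak lay 193 bp away, and the tags exceeded the surrounding region 4.08-fold, near the 4-fold minimum of the caller. Other libraries were high there too. Control ATAC-seq had 86.9 tags against a list median of 5.26, and PC-3 H3K27ac in pGIPZ cells had 4623.3 against 30.7. The next was chr20:26305613-26305887 with 54.9 tags. It had peaks in 7 other lists, among them 45.8 tags of HOXB13 in knockdown cells, and 98.2 tags of HDAC1. Its clonal fold, the peak caller's measure of reads stacked at the same positions, was 1.79, against a class median of 0.98. Among the strongest 10 the clonal fold was also high at chr10:39121310-39121584 (1.88, with 42.2 tags) and chr12:34841425-34841699 (1.43, with 30.8 tags), and its part in these values was not tested. No input library was given, so read pile-up unrelated to HOXB13 was not tested at these 10 sites either. At chr18:110277-110551, HOXB13 had 53.1 tags in WT cells and 159.5 in knockdown cells, the higher of the 2 knockdown HOXB13 values among the 10. At 5 of the strongest 10, a G84E or control peak lay within 500 bp, so that only the other 5 would stay in the class with a margin of 500 bp.

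Other strong WT-alone sites differed in which further peaks they carried. The sites chr9:68428484-68428758 with 42.2 tags and chr21:11066349-11066623 with 36.5 tags had no peak in any other list. Among sites with control ATAC-seq and HDAC3, chr11:9482159-9482433 had 16.4 HOXB13 tags in WT cells, with a control HOXB13 peak 125 bp and a G84E peak 209 bp away. ATAC-seq there was 16.9 tags in knockdown cells and 13.0 in control cells, and HDAC3 was 28.5 and 29.7. PC-3 HOXB13 stood at 45.9 tags at that site, which is far above its list median of 12.7. At chr5:139641498-139641772, with 26.6 HOXB13 tags in WT cells, PC-3 HOXB13 had 53.9 tags and PC-3 H3K27ac 195.2 in shHOXB13 and 130.3 in pGIPZ cells, while no LNCaP HDAC3, HDAC1 or ATAC-seq peak was listed. A control HOXB13 peak lay 320 bp from this site and a G84E peak 371 bp from it. Like chr11:9482159-9482433, it would leave the class with a margin of 500 bp.

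WT-alone sites were spread over the genome. Their share of all WT peaks ranged from 33.7% (31.3 to 36.1%) on chromosome 22 to 43.3% (41.7 to 44.9%) on X. Over chromosomes 1 to 22 and X there were 0.939 WT-alone sites for each G84E-alone site. The ratio was lowest on chromosomes 13 (0.882) and 4 (0.891) and above 1 on 19 (1.12), 22 (1.08) and X (1.05). These chromosome shares rest on the same calls as the rule and are a description.

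**Figure D5:**
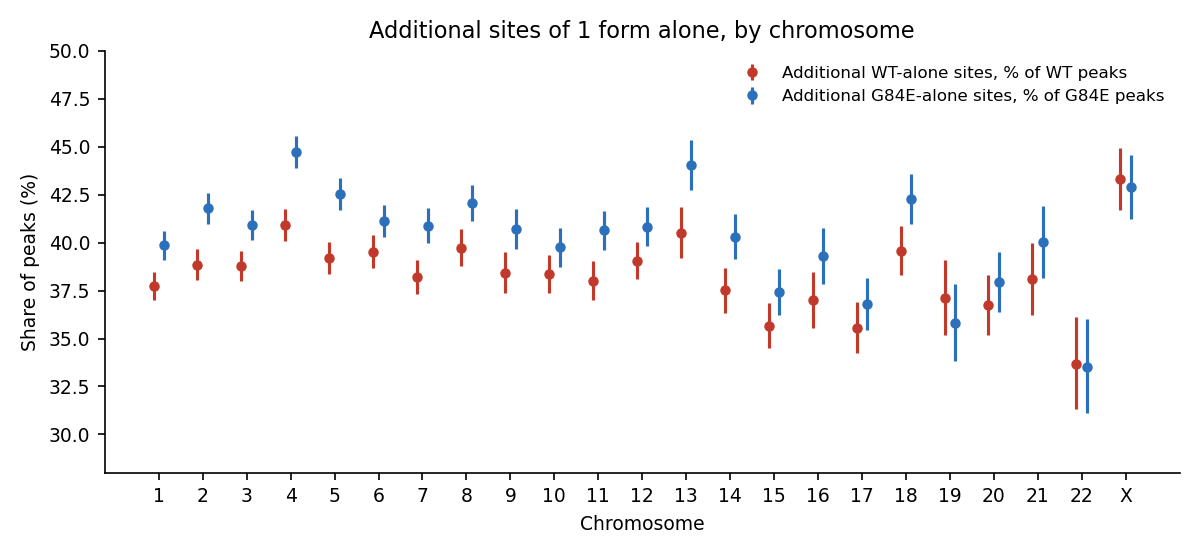
WT-alone sites as a percent of all WT peaks, and G84E-alone sites as a percent of all G84E peaks, by chromosome; bars are Wilson 95% intervals, and the vertical axis starts at 28%. Both classes have their lowest share on chromosome 22, and WT-alone sites have their highest on X.

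Across 2887 windows of 1 Mb, the median window held 26 WT-alone sites, with 5th to 95th percentiles of 9 and 41. The fullest window, from 69 to 70 Mb of chromosome 18, held 56 WT-alone sites and 42 G84E-alone sites. The numbers of WT-alone and G84E-alone sites per window had a Pearson correlation of 0.733 and a Spearman correlation of 0.709. For WT-alone and common additional sites the Pearson correlation was 0.684. Windows were not corrected for mappable length, and the additional classes share the control list they were selected against, so these values are given as a description. WT-alone sites lay closer to each other than common additional sites did. The median distance to the next was 12538 bp for WT-alone sites, 11976.5 bp for G84E-alone sites and 16716 bp for common additional sites, and the common class holds fewer sites.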

How the data were processed

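The submitters' processing notes name Bowtie2, HOMER 4.2 and hg19. Per the file headers, each library's peaks came from a separate run of HOMER findPeaks at a false discovery rate of 0.001, and no input library was given. Except for PC-3 H3K27ac, peaks have 1 fixed width per library and stand at least 4-fold over the 10000 bp around them (local p-value limit 0.0001, per the file headers). PC-3 H3K27ac regions were stitched from windows of 1000 bp. The signal in the deposited lists is the normalized tag count, scaled to 10000000 tags. The deposited score, fraction (focus ratio), fold ratios and p-values come from the authors' peak caller; the score and the fold over local background were used to rank or describe peaks. Total tags ranged from 13.5 M to 47.2 M per library.

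Peaks were shared when they overlapped by 1 bp or more. Shares have Wilson intervals, differences Newcombe intervals, and medians order-statistic intervals, all at 95%; a difference was called when its interval excluded 0. Standardised differences compare classes within 8 groups of tag count, weighted by the WT-alone sites. Log2 ratios of tag counts at named sites have exact intervals. Where a site met several peaks of a list, the highest tag count was used. With 1 library per group, no test between conditions was possible. Named sites are the 10 strongest, the 5 strongest with control ATAC-seq and HDAC3, the 5 strongest with PC-3 HOXB13 and H3K27ac, the 3 largest HDAC3 falls and rises (at or above the median HDAC3 level) and 2 on either side of the rule; part of these are printed. The members, lists and settings were chosen with earlier results of these data known. Scripts (Python 3.11.15, numpy 2.4.6, pandas 2.3.3, scipy 1.17.1) were tested on simulated data. Gene annotation, motifs and sequences of hg19 were not used here.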

Additional observations from a re-analysis of the deposited data

How the results depend on the processing

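Of 80 recomputed values for 10 results, 72 kept their direction and call, 4 lost a call and 4 moved; none was reversed. The number of WT-alone sites was 73744, against 29825 with the better-scoring 50% of every list and 23001 with equal numbers of peaks from the 3 HOXB13 lists; fewer peaks entered both. The HDAC3 difference from common additional sites, 0.189 points, had an interval that included 0 with peaks matched by centres within 100 bp (0.0407), with a 500 bp margin (0.154), on chromosomes 1 to 22 and X (0.178) and without peaks of the knockdown HOXB13 library (0.168). It was larger in the better-scoring 50% (1.02) and with equal numbers of peaks (1.36). The cause was not tested. The median HDAC3 log2 ratio at WT-alone sites, -0.47, was -0.10 per bp of peak width and -0.51 in the better-scoring 50%. No paired analysis was possible because each group holds 1 library and the labels give no replicate numbers. With 1 library per group, differences between cultures cannot be told apart from differences between conditions. Most WT-alone sites have a peak score within 5 of the calling threshold, and the part of counting error in these calls was not tested.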
